A study of Mus musculus with 6 samples.

Results

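Cycling testis interstitial cells are dividing mesenchymal cells of the kind found between the cords of the fetal testis. They were picked here by their RNA from dissociated gonads of control XY and dKO XY mouse embryos at E15.5, so their place in the gonad is not known. The paper describes the dKO XY gonad at this stage as an ovotestis, with most cord structure lost at its poles and FOXL2-positive cells there. A cell was a member when it had at least 3 UMIs (unique molecular identifiers, each a counted RNA molecule) of *Tcf21* and *Pdgfra* together, at least 4 UMIs of *Top2a* and *Mki67* together, fewer than 5 UMIs of the stromal genes *Lum*, *Gdf10* and *Il33* together, fewer than 5 UMIs of the Sertoli gene *Cst9*, fewer than 5 UMIs of the germ cell gene *Dazl*, and less than 0.4% of its UMIs from the Leydig genes *Cyp17a1* and *Cyp11a1*. Of 39350 cells that passed the quality filter in the whole series, 29239 were in the 4 testis libraries, and 6661 of those were members. The members were thus chosen on the measured levels of these 11 genes, whose values are given as a description only. The same rule without its cycle genes held for 17290 testis cells, called interstitial cells here, of which 6177 had no UMI of *Top2a* or *Mki67* and are called non-cycling. The other 4452 had 1 to 3 such UMIs and were left out of the comparisons by state.

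The interstitium of the fetal testis holds mesenchymal progenitors, and steroid-making Leydig cells arise from part of them. *Tcf21* encodes a transcription factor of gonadal mesenchyme and *Pdgfra* the receptor for platelet-derived growth factor A, while *Top2a* (the topoisomerase that untangles replicated DNA) and *Mki67* (the Ki-67 antigen) are made in cells that are in the cell cycle. AMH, which acts through its receptor AMHR2, and activin B, a dimer of the *Inhbb* product, are secreted by Sertoli cells inside the cords.

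Control XY gonads carried Amh+/+; Inhbb+/+ and dKO XY gonads Amh-/-; Inhbb-/-, and no embryo was mutant for a single gene. Each genotype had 2 libraries. The methods call them biological replicates, with both gonads of an animal pooled, and the mice were on a C57BL/6 background. Control XX gonads (Amh+/+; Inhbb+/+, 2 libraries) entered no test here. The question was how dividing interstitial cells differ where AMH and activin B are missing.

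The members numbered 1400 and 1865 in the control XY libraries and 1814 and 1582 in the dKO XY libraries, between 20.5% and 27.8% of the filtered cells. They held 42256581 to 59081164 UMIs per library, with a median of 26292, 22955, 25861 and 31848 UMIs per cell in control XY 1, control XY 2, dKO XY 1 and dKO XY 2 (the order used below), so members of dKO XY 2 were the deepest. Non-cycling cells had medians of 16182, 14013, 16796 and 17178 UMIs. *Amh*, summed over all cells that passed the filter, reached 102 and 174 CPM in the control XY libraries against 9.02 and 11.2 CPM in the mutants, and *Inhbb* 19.3 and 31.3 against 11.7 and 17.8 CPM (CPM, the UMIs of a gene per 1000000 UMIs of the cells summed). *Inhbb* RNA was thus still counted in the mutants. In the members *Inhbb* was at 1.35, 4.13, 4.79 and 7.87 CPM, no lower in dKO XY, and *Amh* at 8.71, 33.5, 6.15 and 7.07 CPM. Whether the RNA counted lies in the deleted part of either gene was not tested. Pairs of libraries shared 0 to 2 member barcodes. dKO XY 2 stood apart in 15 immediate early and heat shock genes, which summed to 3703 CPM in its members and to between 9893 and 10338 CPM in the other 3 libraries.

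The label was checked against 8 interstitial markers that the rule did not use (among them *Nr2f2*, *Col1a1*, *Col3a1*, *Dcn*, *Ptch1*, *Gli1* and *Pdgfrb*), none of which was at 0 in any library. They summed to 5067, 4963, 3235 and 3412 CPM in the members, lower in both dKO XY libraries. *Nr2f2*, the orphan receptor COUP-TFII, was at 852, 856, 542 and 678 CPM. Markers of other cell types were low by comparison, at 84.3 to 123 CPM summed over 11 Sertoli markers, 75.7 to 178 CPM over 9 endothelial markers and 45.5 to 102 CPM over 10 immune markers. The highest were 209 to 274 CPM over 6 Leydig, 30.03 to 356 CPM over 8 granulosa and 120 to 573 CPM over 7 erythroid markers. Members with exactly 4 cycle UMIs, just inside the rule, numbered 79, 80, 121 and 99, and 104, 152, 197 and 136 interstitial cells with 3 lay just outside it. The median member had 37, 34, 28 and 34 UMIs of *Top2a* and *Mki67*, well above the threshold.

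Of the other genes of the rule, *Tcf21* was at 717, 536, 466 and 422 CPM in the members and *Pdgfra* at 321, 317, 172 and 210 CPM. Both were lower in the dKO XY libraries, and the median member had 26, 19, 15 and 18 UMIs of the pair. Members at the threshold of 3 numbered 16, 49, 72 and 72. Among the genes that the rule caps, *Lum* was at 25.3, 28.7, 11.9 and 9.06 CPM, *Cst9* at 5.66, 14.4, 17.8 and 21.3 CPM, *Dazl* at 0.497, 0.450, 6.50 and 11.9 CPM and *Cyp11a1* at 43.9, 44.2, 47.2 and 66.1 CPM. *Gdf10* and *Il33* stayed under 3 CPM.

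Genes of G2 and mitosis separated the members from non-cycling interstitial cells most. This contrast follows from the rule and is described without a test. Of a list of 54 G2 and mitosis genes (G2M list), 53 were higher in the members in all 4 testis libraries, and the list's median log2 ratio of members to non-cycling cells was 4.5, 4.13, 3.86 and 3.55. Of 47 genes of S phase (S list), 46 were higher in every library, with medians of 1.70, 1.55, 1.11 and 0.996. Both ratios were smaller in dKO XY than in control XY. The largest ratios among genes at 16 CPM or more belonged to *Hmmr* (mean log2 ratio 5.39 over the 4 libraries), a spindle protein, *Nusap1* (5.33), which bundles spindle microtubules, *Hist1h2ap* (5.15), a histone gene, and *Prc1* (5.12), which organises the midzone of the anaphase spindle. *Cdkn2c*, which encodes the CDK4 and CDK6 inhibitor p18, was also 3.63 higher on this scale, at 35.5 CPM in members against 1.71 CPM in non-cycling cells.

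Among genes that were lower in the members, the most negative ratio was that of *Ogn*, which encodes the matrix protein osteoglycin, with log2 ratios between -1.64 and -0.82 in the 4 libraries. It was at 15.8 CPM in members and 41.6 CPM in non-cycling cells. *Prlr*, the prolactin receptor, had a mean ratio of -0.79, *Ccnd2* (cyclin D2) of -0.64 and *Mxd4*, a MAX partner that opposes MYC, of -0.69. The secreted factors *Sostdc1* (-0.56), *Inhba* (-0.47) and *Cxcl12* (-0.45) were also lower in members in each library. The interstitial factor *Nr2f2* (-0.083) was close to equal levels in every library.

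Promoters of the cell cycle lists are shown because these genes move together with the state and because short motifs in them are known sites of cell cycle control. The window ran from 250 bases before to 50 after the start of each gene (RefSeq, GRCm38.p6), and a single window per gene was searched on both strands for the cell cycle homology region CHR (TTTGAA), the CCAAT box (CCAAT) and an E2F site (TTTGGCGC or TTTCGCGC). These motifs can overlap. The sequences below hold the capitals wherever one of the 3 motifs lies on either strand, and stand for *Ccnb1* (cyclin B1, chr13:100786437-100786736, minus strand), *Ube2c* (an ubiquitin carrier of the anaphase-promoting complex, chr2:164769679-164769978, plus strand), *Hmgb2* (a chromatin protein, chr8:57511593-57511892, plus strand) and *Mcm5* (a subunit of the replicative helicase, chr8:75109259-75109558, plus strand), each 5′ to 3′ along the gene.
Ccnb1: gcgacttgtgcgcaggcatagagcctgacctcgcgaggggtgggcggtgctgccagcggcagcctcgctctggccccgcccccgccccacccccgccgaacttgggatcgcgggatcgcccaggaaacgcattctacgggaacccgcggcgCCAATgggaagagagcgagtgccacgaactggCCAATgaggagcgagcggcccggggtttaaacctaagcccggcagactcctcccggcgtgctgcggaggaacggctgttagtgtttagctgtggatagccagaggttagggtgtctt
Ube2c: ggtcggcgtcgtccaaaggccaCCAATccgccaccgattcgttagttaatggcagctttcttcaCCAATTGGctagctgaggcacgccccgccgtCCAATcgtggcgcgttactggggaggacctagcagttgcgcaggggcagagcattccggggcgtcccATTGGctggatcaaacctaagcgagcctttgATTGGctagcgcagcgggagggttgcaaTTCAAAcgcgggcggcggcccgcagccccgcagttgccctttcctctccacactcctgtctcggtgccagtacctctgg
Hmgb2: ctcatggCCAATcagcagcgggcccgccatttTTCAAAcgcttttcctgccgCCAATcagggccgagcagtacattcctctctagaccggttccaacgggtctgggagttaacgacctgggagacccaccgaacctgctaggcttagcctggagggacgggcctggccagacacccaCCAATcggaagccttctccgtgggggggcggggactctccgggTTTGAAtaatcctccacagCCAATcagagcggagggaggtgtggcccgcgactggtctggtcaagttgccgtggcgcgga
Mcm5: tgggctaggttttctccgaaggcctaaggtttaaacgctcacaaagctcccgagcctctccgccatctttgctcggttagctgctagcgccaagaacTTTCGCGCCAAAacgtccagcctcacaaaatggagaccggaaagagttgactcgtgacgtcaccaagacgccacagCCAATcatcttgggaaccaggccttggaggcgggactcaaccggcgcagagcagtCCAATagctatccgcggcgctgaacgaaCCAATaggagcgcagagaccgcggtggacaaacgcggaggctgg
In the members, *Hmgb2* was at 2686, 2417, 2083 and 1646 CPM, *Ube2c* at 601, 542, 548 and 482 CPM, *Ccnb1* at 180, 159, 149 and 127 CPM, and *Mcm5* at 110, 113, 94.7 and 99.2 CPM. None of these passed the test between genotypes. The *Hmgb2* window holds 2 CHR and 4 CCAAT matches, the *Ube2c* window 1 and 6, and the *Ccnb1* window 2 CCAAT matches and no TTTGAA. The *Mcm5* window holds 3 CCAAT matches and 2 E2F matches that overlap on opposite strands. Of the G2M list, 46 of 54 genes had a window, and 32 of these (69.6%) held a CHR match, against 18.1% of all 27025 windows and 5 of 35 (14.3%) of the S list. An E2F match was in 9 of 35 S list windows (25.7%), 2 of 46 G2M list windows (4.35%) and 0.833% of all windows. CCAAT matches were in 76.1% of G2M, 65.7% of S and 37.9% of all windows. Among the 9355 windows of genes at 1 CPM or more in the members, 11.3% held a CHR, 39.1% a CCAAT and 1.62% an E2F match. A match is a description of these letters and not a measured binding site.

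Within the members, cells with the most S list UMIs tended to have fewer G2M list UMIs, and some cells had few of both. Each member was thinned to 10000 UMIs, which left out 32, 71, 134 and 54 shallower cells, and the S and G2M UMIs of a cell were counted. The median member then had 39, 43, 38 and 35 S list UMIs and 114, 106, 93 and 80 G2M list UMIs. The G2M UMIs of a cell were divided by the total of that list over all members, and its S UMIs likewise. A cell was G2M-led where the former value was larger, and S-led otherwise. The split is thus relative to the average of these members and does not measure the fraction of cells in G2 or mitosis. Both genotypes covered the whole range from S-led to G2M-led cells. The share of members led by G2 and mitosis genes was 49.2%, 45.0%, 45.1% and 41.2%, with 95% Wilson intervals of 46.6 to 51.8%, 42.7 to 47.3%, 42.8 to 47.5% and 38.8 to 43.7% that cover counting error only. The difference of -3.91 percentage points (dKO XY minus control XY) was not beyond the spread between libraries, since dKO XY 1 lay just above control XY 2 (two-sided exact permutation test, p = 0.667, where 2 libraries against 2 cannot give less than 0.33). Alternatives went both ways. Without members rich in epithelial, germ, endothelial and immune markers the genotypes did not overlap, at 53.0%, 51.2%, 47.7% and 47.7% (-4.41 points). With all UMIs of each cell they did not overlap either, at 49.8%, 46.3%, 46.1% and 42.2%, and the exact p stayed at 0.33 in both. They did overlap at 8 or more cycle UMIs (51.2%, 47.6%, 48.9% and 45.0%) and without members rich in Sertoli and granulosa markers (49.7%, 46.1%, 46.6% and 43.2%). With the rule on thinned cells and at under 10% mitochondrial UMIs they overlapped too, but not with stricter exclusion of other cell types or without high doublet scores. The split is a range and not a type, since 18.1% to 20.8% of the cells lay near the border, between 0.4 and 0.6 on the index from 0 (S-led) to 1 (G2M-led).

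**Figure D1:**
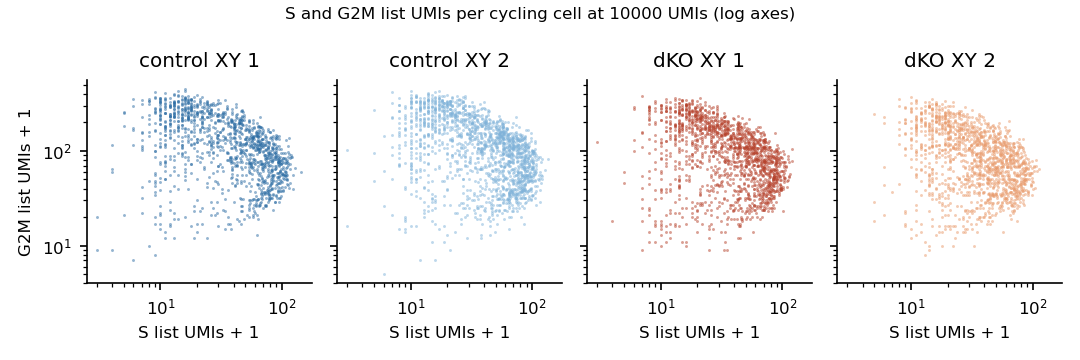
UMIs of the S list (horizontal) and of the G2M list (vertical) in each cycling interstitial cell thinned to 10000 UMIs, on log axes after adding 1, with 1 panel per library and 1 point per distinct pair of values. In all 4 panels most cells lie along an arc from many G2M and few S UMIs to the reverse, with others below it, and the medians are 114, 106, 93 and 80 G2M UMIs.

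Several regulators of the cycle differed along this range in the same direction in all 4 libraries. *Ccnd1* (cyclin D1), which drives entry into S phase with CDK4 and CDK6, was higher in S-led cells, at 18.6, 29.997, 62.7 and 69.7 CPM, than in G2M-led cells, at 5.70, 15.1, 23.7 and 33.2 CPM. *Cdk2*, the kinase partner of cyclin E, was at 34.1 to 47.5 CPM in S-led and 19.6 to 21.6 CPM in G2M-led cells. The inhibitors *Cdkn2c*, *Cdkn2d* and *Cdkn1b* went the other way, with mean log2 ratios of G2M-led to S-led cells of 1.28, 1.15 and 0.94. *Cdkn1c*, the inhibitor p57, had ratios of -0.049 and -0.019 in control XY and of -0.42 and -0.30 in dKO XY. These values are a description without a test. They were named after they had been seen.

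A larger share of the cells counted as interstitial was cycling in the dKO XY libraries. It was 31.0% (1400 of 4512) and 33.4% (1865 of 5576) in control XY and 41.8% (1814 of 4335) and 55.2% (1582 of 2867) in dKO XY, with 95% Wilson intervals no wider than 53.4 to 57.0%. The difference of 16.3 percentage points came with the smallest p that 2 against 2 libraries allow (two-sided exact permutation test, p = 0.33), so it cannot pass a threshold of 0.05. It rested in part on dKO XY 2, since without that library it was 9.61 points. Because a fixed number of UMIs is reached more easily in deeper cells, the rule was also applied to cells thinned to 10000 UMIs. This gave 28.1%, 31.4%, 33.7% and 44.2%, a difference of 9.19 points. It left out 165, 462, 338 and 131 shallower interstitial cells and counted 4714, 5344, 3721 and 2441 cells as interstitial. The denominators thus changed as well, and the effect of depth alone was not tested. The genes that define the denominator moved with the genotype too, since *Pdgfra* was at 367, 392, 201 and 224 CPM and *Tcf21* at 757, 605, 535 and 457 CPM in non-cycling cells, which were also shallower than the members. How many cells this kept under the threshold of 3 UMIs was not tested.

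The summed level of cycle genes over all interstitial cells differed less than the share did. The S list reached 2932 and 3120 CPM in control XY and 3245 and 3309 CPM in dKO XY, and the G2M list 6492, 6385, 6520 and 7078 CPM. Within the members, the G2M list was lower in dKO XY, at 13222 and 11950 against 10765 and 9534 CPM, and so were the genes of the rule, with *Top2a* at 923, 904, 706 and 705 CPM and *Mki67* at 534, 537, 390 and 448 CPM. With at least 8 cycle UMIs required, the G2M list stood at 14270, 12930, 11868 and 10346 CPM. With the rule applied to cells thinned to 10000 UMIs it stood at 14335, 12969, 12355 and 10967 CPM, in the same order.

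**Figure D2:**
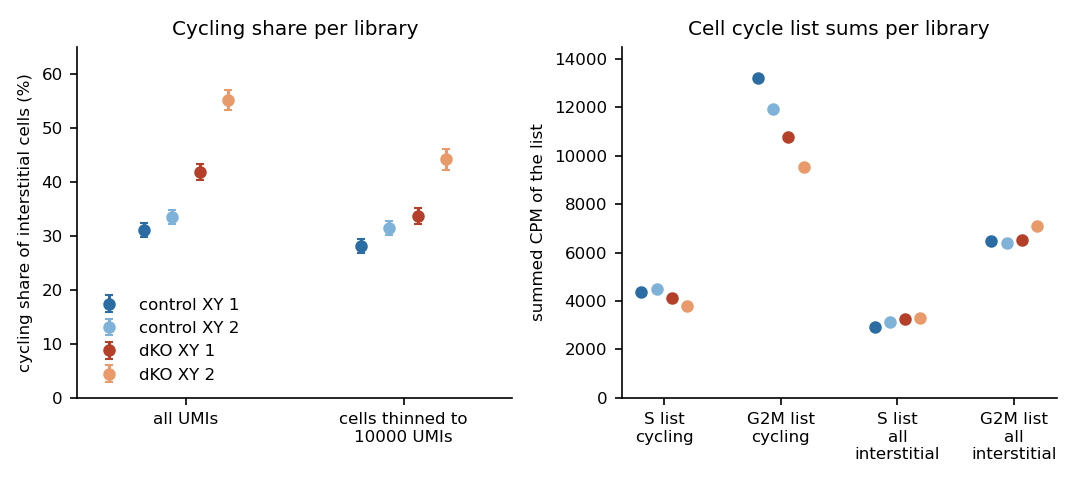
Left, percent of interstitial cells that were cycling in each library, with 95% Wilson intervals as bars. It is shown with all UMIs and with the rule applied to cells thinned to 10000 UMIs, without shallower cells. Right, summed CPM of the S and G2M lists in cycling cells and in all interstitial cells, with 1 point per library. dKO XY 2 is highest in share, at 55.2% and 44.2%, and lowest for the G2M list in cycling cells, at 9534 CPM.

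Dividing interstitial cells of dKO XY gonads differed from those of control XY in 958 of 15731 genes tested (6.09%). UMIs were summed over the members of each library and compared with edgeR's quasi-likelihood test, and a gene was called at a Benjamini-Hochberg adjusted p under 0.05. Of these 958, 576 were higher in dKO XY (3.66%) and 382 lower (2.43%). These shares are the background for the counts below. For counts at an unadjusted p under 0.05 the background is 3532 of the 15731 genes. Calls dropped more when a control XY library was left out than when a dKO XY library was. Without a control XY library, the spread was measured in the dKO XY pair alone. With 1 library left out, log2 fold changes ran from 3.03 to 3.92 for *Kctd14*, from 1.69 to 1.76 for *Rspo1* and from -2.26 to -2.02 for *Col25a1*. Leaving out control XY 1 left 25 calls, 24 of them among the 958, leaving out control XY 2 left 167, and leaving out dKO XY 1 or dKO XY 2 gave 1294 or 867. Of 67 called genes that the naming rule picked, 9 kept their call without control XY 1 and 30 without control XY 2. Those that kept it whichever library was left out were *Amhr2*, *Rspo1*, *Cpe*, *Col25a1*, *Syt13* and the epithelial marker *Krt8*. *Sp5* and germ cell markers are left out of this list, since they are given below by their levels only.

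Above a floor of 4 in mean log2 CPM, the largest rise was that of *Kctd14*, a gene named for its potassium channel tetramerisation domain (chr7:97451323-97459557 of GRCm38). It was at 15.0 and 26.4 CPM in control XY against 165 and 287 CPM in dKO XY, with no overlap, a log2 fold change of 3.46 ± 0.36 (SE, n = 2 libraries per genotype, adjusted p = 0.0120). Its UMIs were unevenly spread over the cells, and the tenth of members with the most *Kctd14* had 75.8%, 59.5%, 76.0% and 75.2% of them. *Amhr2*, the receptor of AMH (chr15:102445367-102454633), was at 3.67 and 6.63 CPM against 33.0 and 34.7 CPM, a log2 fold change of 2.73 ± 0.26 (adjusted p = 0.0107). Both dKO XY libraries lay several-fold above both controls. *Cpz*, a secreted carboxypeptidase that binds WNT proteins, rose from 6.67 and 6.26 CPM to 42.7 and 28.8 CPM (2.49 ± 0.22, adjusted p = 0.00975). *Serpinb6b*, an intracellular protease inhibitor, was at 14.9 and 17.0 against 60.1 and 83.4 CPM. The others of the first 10 were *Cpe* (carboxypeptidase E), *Gas6* (a ligand of the TAM receptors), *Tgfbi* (a matrix protein induced by TGF-beta), *Nts* (neurotensin), *Aldh1a1* (a retinaldehyde dehydrogenase) and *Rspo1*, with log2 fold changes of 1.53 to 1.73.

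*Rspo1*, an R-spondin that amplifies WNT signals, was at 9.44 and 9.17 CPM in control XY against 30.7 and 30.1 CPM in dKO XY. This rise of 1.73 ± 0.10 (adjusted p = 0.00673) was lost when members with 5 or more UMIs of Sertoli and granulosa markers, not counting *Kctd14* and *Rspo1*, were left out, which removed 241, 455, 537 and 681 cells. It then was 0.080 (adjusted p = 0.808, the highest of its alternatives). Its call was also lost without the members rich in epithelial, germ, endothelial and immune markers (0.48, adjusted p = 0.1155). In thinned cells the rise was 0.64 (adjusted p = 0.0306). Without the members rich in Sertoli and granulosa markers, the rises of *Kctd14* (2.4, adjusted p = 0.0139) and *Amhr2* (1.98, adjusted p = 0.0217) kept their calls. *Cpz* was then at 2.73 (adjusted p = 0.0111). Sums of granulosa markers moved with the genotype in the members, at 30.03 and 45.5 CPM over 8 genes in control XY and 233 and 356 CPM in dKO XY, with none at 0 in any library. *Kctd14* is itself one of these markers and made up most of the sum in dKO XY, and *Rspo1* is another.

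Above the same floor in mean log2 CPM, the largest fall was that of *Col25a1*, a transmembrane collagen (chr3:130131501-130599877). It went from 101 and 99.2 CPM in control XY to 24.1 and 20.99 CPM in dKO XY (log2 fold change -2.13 ± 0.10, adjusted p = 0.00673). *Penk*, which encodes the opioid precursor proenkephalin, fell from 30.7 and 22.4 to 6.84 and 5.65 CPM. *Pdlim3*, an actin-associated LIM protein, was the most abundant of those named, at 335 and 334 against 120 and 81.1 CPM. No library of one genotype reached the levels of the other in any of these. Further falls were those of *Tmem100*, *Flrt3* (a membrane protein of cell adhesion), *Syt13* (a synaptotagmin), *Lgi2*, *Msc* (the bHLH factor musculin) and *Ly6h*, with log2 fold changes from -1.67 to -1.57. All 10 falls kept their calls without the members rich in Sertoli and granulosa markers, at adjusted p between 0.00815 and 0.0216.

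**Figure D3:**
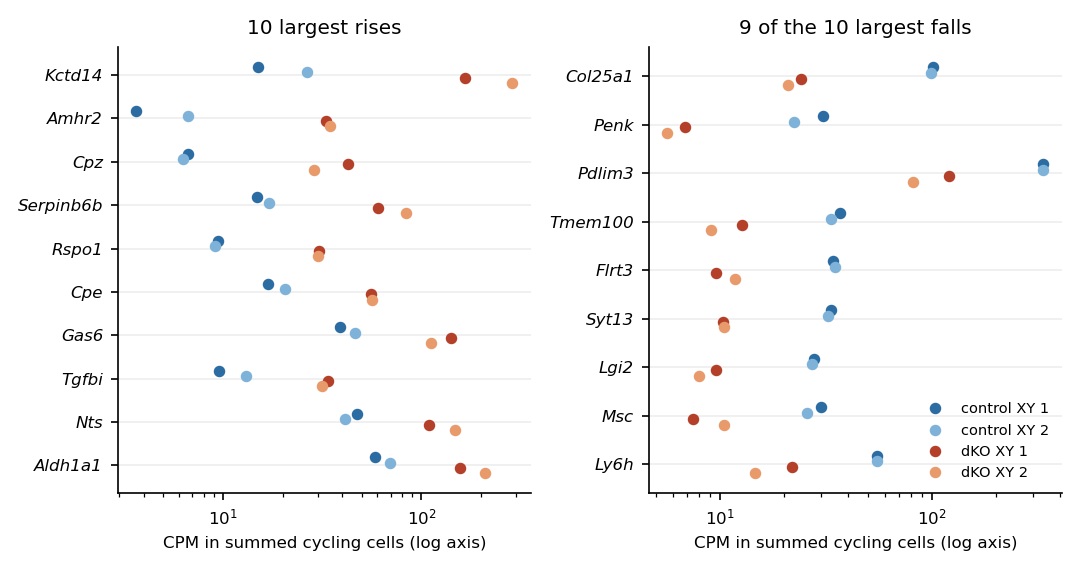
CPM (log axis) of 19 genes, the 10 that rose most and 9 of the 10 that fell most, in cycling interstitial cells of dKO XY against control XY, with 1 point per library. The control and dKO points of each gene do not overlap, as for *Kctd14* at 15.0 and 26.4 against 165 and 287 CPM and *Col25a1* at 101 and 99.2 against 24.1 and 20.99 CPM. The genes were chosen for these differences, among called genes at a mean log2 CPM of 4 or more.

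Few replication and mitosis genes were called between the genotypes within the members. None of the 47 S list genes was called, and the median log2 fold change was -0.13. An unadjusted p under 0.05 was found for 9 of them, against 3532 of all 15731 genes tested. *Nasp*, a histone chaperone, was at 374, 397, 336 and 350 CPM. Of the 54 G2M genes 2 were called, both lower, the kinesin *Kif23* of the cleavage furrow (183, 174, 116 and 111 CPM, -0.63 ± 0.08, adjusted p = 0.0168) and *Hjurp*, the chaperone of centromeric histone (280, 296, 180 and 216 CPM, -0.52 ± 0.10, adjusted p = 0.0398). The call of *Hjurp* was lost in cells thinned to 10000 UMIs (adjusted p = 0.0781) and without the members rich in Sertoli and granulosa markers (0.112). The G2M median was -0.27, against -0.000649 over all genes tested, with 53 of the 54 below 0 and 28 at an unadjusted p under 0.05.

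Of 16 regulators of cycle entry and exit, 5 were higher and 1 lower, with a median of 0.051. *Cdkn1c*, which encodes the inhibitor p57, rose from 75.5 and 82.5 to 161 and 182 CPM (1.13 ± 0.09, adjusted p = 0.00673), a rise of 0.52 (adjusted p = 0.0306) without the members rich in Sertoli and granulosa markers. *Cdkn2c*, which encodes p18, fell from 57.0 and 43.9 to 23.5 and 17.8 CPM (-1.27 ± 0.19, adjusted p = 0.0268). The kinase *Cdk6* (13.8, 17.0, 26.4 and 29.1 CPM) and the MYC family factor *Mycn* (10.3, 11.3, 17.6 and 19.3 CPM) rose by 0.87 and 0.79, and *Mycn* lost its call in thinned cells (adjusted p = 0.0503) and without the members rich in Sertoli and granulosa markers (0.0533). Named after their values were seen, *Ccnd1* was at 12.4, 23.7, 45.7 and 55.1 CPM (1.5 ± 0.29, adjusted p = 0.0444, or 0.0672 without the members rich in Sertoli and granulosa markers) and *Cdkn1a*, the p53 target p21, at 4.07, 5.50, 11.4 and 8.55 CPM (1.08 ± 0.22, adjusted p = 0.0498, or 0.0825 without those members). *Ccnd2* (123, 162, 215 and 289 CPM) missed the threshold at adjusted p = 0.0533.

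Secreted factors of the interstitium fell more often than they rose. Of 21 such genes, 9 were lower and 4 higher, with a median of -0.31, and 6 were lower and 4 higher without the members rich in Sertoli and granulosa markers. *Inhba*, the subunit of activin A (chr13:16011851-16031621), fell in these cells from 395 and 379 to 148 and 168 CPM (-1.27 ± 0.08, adjusted p = 0.00673). *Dlk1*, a Notch-related protein of progenitors, fell from 1181 and 962 to 419 and 369 CPM, and the chemokine *Cxcl12* from 924 and 777 to 368 and 391 CPM (-1.42 and -1.15). These levels left no overlap between genotypes. *Wnt5a*, a ligand of the non-canonical WNT pathway, was at 300, 310, 185 and 192 CPM (-0.68). Named after their values were seen, *Sostdc1*, an antagonist of BMP and WNT, was at 267, 233, 108 and 90.3 CPM (-1.31) and *Igf1* at 140, 141, 83.9 and 72.4 CPM (-0.83). *Fgf7* fell as well, at 1.59 CPM or less in every library, but lost its call without those members (adjusted p = 0.0565). The rises were those of *Gas6*, *Igfbp3*, *Kitl* (the ligand of KIT, 29.5, 33.9, 56.9 and 60.0 CPM) and *Bmp4* (13.5, 13.5, 21.2 and 22.7 CPM).

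Among 28 interstitial transcription factors, 5 were lower and 1 higher, with a median of -0.21. *Osr1*, a zinc finger factor of intermediate mesoderm, fell from 32.2 and 27.5 to 12.5 and 8.65 CPM (-1.47 ± 0.21, adjusted p = 0.0222). *Meis1* (76.6, 83.9, 53.7 and 57.8 CPM) and *Lhx9* (339, 307, 222 and 231 CPM), factors of the early gonad, fell by 0.51 and 0.49. Among the alternative settings that left out no library, their highest adjusted p was 0.0511 and 0.05635, so each missed the threshold. With 1 library left out, their log2 fold changes ran from -0.56 to -0.45 and from -0.57 to -0.41. Also called were *Prrx1*, lower, whose call was lost in thinned cells (adjusted p = 0.0807), and *Wt1*, higher (35.1, 50.1, 86.3 and 73.0 CPM, adjusted p = 0.0474), whose call was lost in thinned cells (adjusted p = 0.141) and without the members rich in Sertoli and granulosa markers (0.140). *Nr2f2* was not called, at an adjusted p of 0.0671.

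Of 30 genes of the AMH, activin and BMP response, 2 were called. These were *Amhr2* and *Inha*, the inhibin alpha subunit (18.4, 22.7, 37.1 and 44.6 CPM), and the log2 fold change of *Inha*, 1.01, was 0.28 in thinned cells (adjusted p = 0.464), 0.53 without the members rich in Sertoli and granulosa markers (0.151) and 0.71 without those rich in the other markers (0.0690). *Id1*, *Id2* and *Id3*, classical targets of BMP signalling, were high in 1 library, with *Id3* at 203, 212, 566 and 207 CPM (adjusted p = 0.292). The dKO XY libraries therefore differed from each other more than the genotypes did in these genes. Of 11 Hedgehog genes, 3 were called, all lower. Among these were the receptor *Ptch1* (279, 289, 218 and 224 CPM) and the decoy *Hhip* (66.9, 71.1, 44.1 and 52.2 CPM), which are induced by the pathway, with log2 fold changes of -0.34 and -0.50. The call of *Ptch1*, at adjusted p = 0.0471, was lost whichever of the 4 libraries was left out and in thinned cells (adjusted p = 0.0680). Without the members rich in Sertoli and granulosa markers 1 of the 3 calls was left, with *Ptch1* at an adjusted p of 0.153 and *Hhip* at 0.0894. None of 13 Notch genes was called, at an unadjusted p under 0.05 for 2, and *Hes1* and *Notch2* were at 143 to 193 and 92.6 to 124 CPM.

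WNT genes went both ways, with 6 higher and 4 lower of 20 tested (21 listed). *Lef1*, a transcription factor of canonical WNT signalling, rose from 9.49 and 10.2 to 17.3 and 20.2 CPM, with a log2 fold change of 0.94 ± 0.12. *Sp5*, another such factor and one of the 6, was at 0.142, 0.293, 4.94 and 4.81 CPM. It is given by these levels, since it passed the filter on low counts through the dKO XY libraries. *Axin2*, a feedback inhibitor of the pathway and named after its values were seen, rose as well, at 19.1, 17.2, 31.1 and 36.5 CPM (0.92). The rises of *Lef1* and *Axin2* kept their calls without the members rich in Sertoli and granulosa markers (adjusted p of 0.0140 and 0.0245), while those of *Rspo1*, *Lgr5* (itself one of the markers counted) and *Wnt6* did not. The ligand *Wnt4* (232, 244, 148 and 124 CPM) was lower, as were *Wnt5a* and the receptors *Ror2* and *Fzd2*. The calls of *Ror2* and *Fzd2* were lost without those members (adjusted p of 0.0710 and 0.0764) and in thinned cells (0.0744 and 0.102). In the PDGF and VEGF list, *Nrp1* fell (69.7, 76.5, 39.0 and 43.1 CPM) and *Nrp2* rose (6.96, 8.57, 14.4 and 13.2 CPM), both neuropilin co-receptors, and the other 9 genes were not called.

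More matrix genes fell than rose. Of 33, 12 fell and 2 rose, with a median of -0.26, and the falls called numbered 8 in thinned cells and 5 without the members rich in Sertoli and granulosa markers. *Col1a1*, a chain of type I collagen, fell from 1005 and 989 to 568 and 462 CPM (-0.93 ± 0.12, adjusted p = 0.0187). The proteoglycan decorin *Dcn* (739, 688, 388 and 310 CPM), the basement membrane chain *Lama2* (65.5, 68.7, 36.1 and 39.6 CPM) and *Fbln1*, fibulin 1 (375, 323, 201 and 207 CPM), fell by 1.01, 0.81 and 0.75. In each of these both dKO XY libraries were below both controls. The rises were *Col14a1*, whose call was lost in thinned cells (adjusted p = 0.114), and *Sparc*. None of 13 peritubular and smooth muscle genes was called, at an unadjusted p under 0.05 for 3, with *Tpm1* at 1048, 1091, 1387 and 1303 CPM (adjusted p = 0.0610) and *Cald1* at 1018, 1062, 1102 and 1187 CPM. *Tpm1*, a tropomyosin, was called higher without the members rich in Sertoli and granulosa markers (0.49, adjusted p = 0.0403) and without those rich in the other markers (adjusted p = 0.0162), and its difference was smaller in cycling than in non-cycling cells (-0.17, interaction adjusted p = 0.0292).

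**Figure D4:**
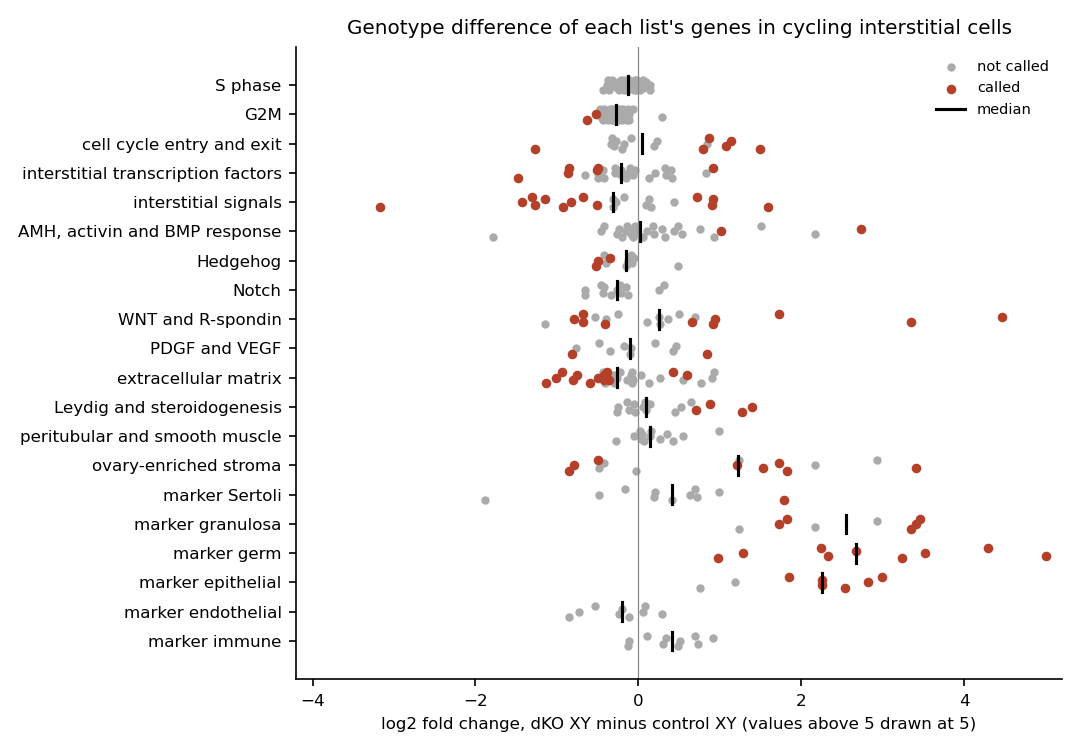
Log2 fold change between dKO XY and control XY cycling interstitial cells for the genes of 20 lists, with called genes in red, other tested genes in grey and the list's median as a black bar. The matrix and interstitial signal lists lie mostly below 0, with medians of -0.26 and -0.31, and the granulosa and epithelial marker lists lie above it. *Stra8*, at 0 in both control libraries, is drawn at 5. Germ cell markers and *Sp5* are drawn as well, though the text gives them by their levels.

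Of 17 steroidogenic and Leydig genes tested (18 listed), 4 were higher, *Star* (8.19, 10.3, 18.8 and 25.4 CPM), the mitochondrial cholesterol carrier, *Fdxr* (69.8, 74.0, 106 and 125 CPM), which passes electrons to the mitochondrial P450 enzymes, *Hsd3b1* (20.2, 21.8, 38.8 and 70.4 CPM) and *Nr0b1*. *Star* rose by 1.27 and *Fdxr* by 0.70, and the rise of *Star* was 0.71 in thinned cells (adjusted p = 0.0336) and 0.76 without the members rich in epithelial, germ, endothelial and immune markers (0.0436). *Hsd3b1* and *Nr0b1* lost their calls without the members rich in Sertoli and granulosa markers (adjusted p = 0.232 and 0.841). *Cyp17a1*, a gene of the rule that caps the members' level, was at 58.5, 60.6, 66.2 and 94.3 CPM. Of 13 genes listed as ovary-enriched stroma, 5 were higher and 3 lower. The list's name did not hold for all its genes in control XX cells under the same thresholds. *Aldh1a1* (32.8 and 15.6 CPM) and *Lhx9* (130 and 103 CPM) were lower there than in control XY, while *Foxl2*, *Rspo1*, *Runx1* and *Aldh1a2* were higher. Among the rises in dKO XY, *Foxl2*, *Rspo1* and *Runx1* are also in the granulosa marker list. *Runx1*, at 4.05, 4.58, 15.2 and 14.9 CPM (1.82), and *Aldh1a2*, which makes retinoic acid, at 27.3, 23.4, 55.1 and 60.2 CPM (1.21), were among the rises, and *Runx1* lost its call without the members rich in Sertoli and granulosa markers, a list that counts it (adjusted p = 0.0841).

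Markers of some other cell types moved with the genotype in the members, beside every gene above. Of 8 granulosa markers 5 were higher and of 8 epithelial markers 6, against 3.66% of all genes tested. Of 11 Sertoli markers only 1 was higher, and their sums of 84.3, 123, 114 and 110 CPM overlapped between genotypes. Germ cell markers are given by their levels, since some passed the filter on low counts through the dKO XY libraries, such as *Stra8* at 0, 0, 1.23 and 2.76 CPM. *Foxl2*, the granulosa transcription factor, was at 0.331 and 0.939 CPM in control XY against 5.78 and 7.90 CPM in dKO XY. The germ cell marker *Dppa3* was at 0.923 and 0.606 against 7.97 and 9.21 CPM, and the keratin *Krt8* at 1.59 and 3.11 against 19.7 and 17.4 CPM. Over the whole lists, germ markers summed to 7.27, 6.92, 29.6 and 42.0 CPM, with 2 at 0 in each control XY library (*Stra8* among them) and none in dKO XY, and epithelial markers to 16.3, 23.1, 112 and 81.9 CPM. Erythroid markers summed to 120, 251, 573 and 451 CPM. No marker of the endothelial, immune or pericyte lists was called, at an unadjusted p under 0.05 for 1, 3 and 1. With members of 5 or more UMIs of Sertoli and granulosa markers left out, 479 genes were called, 459 of them among the 958, and with members of 3 or more UMIs of epithelial, germ, endothelial and immune markers left out, 815, of which 636 were among the 958. The former filter removed 17.2%, 24.4%, 29.6% and 43.0% of the members and the latter 32.9%, 34.0%, 44.3% and 62.0%, so both took most from dKO XY 2. Both filters were chosen after the data were seen. The part of RNA from other cells in these results was not tested beyond this.

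The genotype difference was then set against that of non-cycling interstitial cells of the same libraries, by the interaction of genotype and state with the library as a block. Of 15821 genes, 228 were called (1.44%), 111 with a more positive difference in cycling cells and 117 with a more negative one. Without dKO XY 2 only 9 were called.

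The genes with a more negative difference included many of the S list, 21 of 47, with 6 of 54 of the G2M list and none of either with a more positive one. Their levels are tied to the genes that set the states, so these counts are a description. The G2M count was 25 in cells thinned to 10000 UMIs and 4 with DESeq2. The median difference of the G2M list ran from -0.72 to -0.27 with 1 library left out. *Mcm3*, a subunit of the replicative helicase, was at 133, 150, 133 and 144 CPM in cycling cells, but at 62.5 and 69.2 against 89.8 and 94.4 CPM in non-cycling cells. *Hells*, a chromatin remodeller of replicating DNA, was at 112, 120, 100 and 109 CPM in cycling and 44.3, 49.8, 59.7 and 63.2 CPM in non-cycling cells. Summed over cells without a UMI of *Top2a* or *Mki67*, the S list was at 1636 and 1742 CPM in control XY against 1966 and 2016 CPM in dKO XY. All 47 S list genes lay lower in cycling than in non-cycling cells in their log2 fold change. With the rule applied to cells thinned to 10000 UMIs, 36 of the 47 were called, without dKO XY 2 none.

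**Figure D5:**
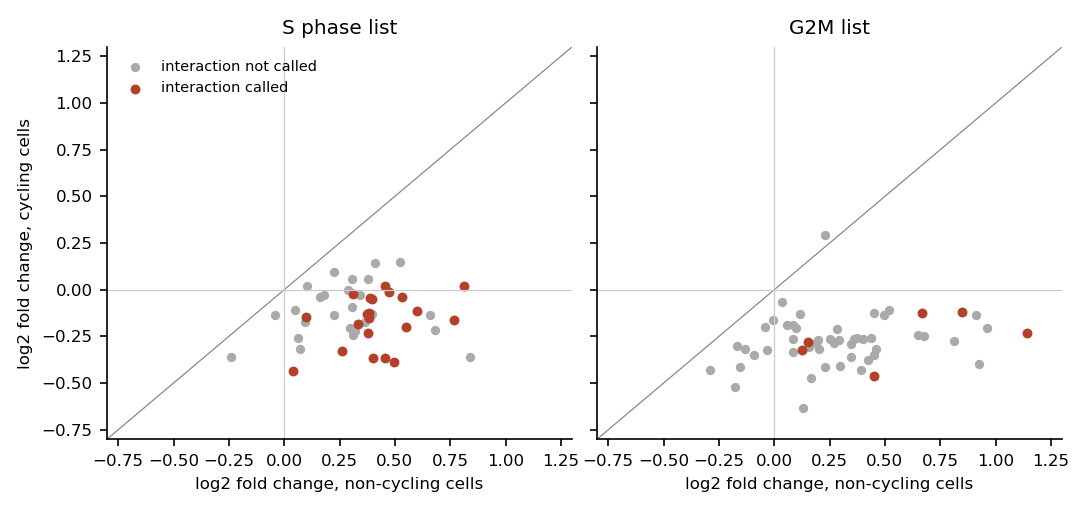
Log2 fold change of dKO XY against control XY in non-cycling (horizontal) and cycling (vertical) interstitial cells for the genes of the S list (47, left) and of the G2M list (54, right), with genes called for the interaction in red and the line of equality in grey. All 47 and 53 of 54 points lie below the line.

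Among other genes, *Igfbp3*, which binds insulin-like growth factors, had the smallest p. It was at 143, 134, 287 and 228 CPM in cycling and 223, 215, 311 and 253 CPM in non-cycling cells, so its log2 fold change was 0.92 in the former and 0.36 in the latter (difference 0.58 ± 0.04, adjusted p = 0.00102). In control XY it was thus lower in dividing cells than in the others, and in dKO XY the states were closer. *Ifitm1*, an interferon-induced membrane protein, was at 201, 174, 345 and 354 CPM against 328, 273, 423 and 460 CPM (difference 0.39 ± 0.04, adjusted p = 0.0100). For 3 of the interstitial signals that fell, no difference by state was called, with interaction adjusted p of 0.998 for *Inhba*, 0.955 for *Dlk1* and 0.976 for *Cxcl12*, whose log2 fold changes in non-cycling cells were -1.27, -1.41 and -1.13. The list medians of matrix genes (-0.26 and -0.31) and interstitial signals (-0.31 and -0.34) lay close together in cycling and non-cycling cells. Of the 33 matrix genes 4 were nonetheless called for the interaction, the basement membrane collagens *Col4a1* (-0.25) and *Col4a2* (-0.30) with a more negative difference in cycling cells and the elastic fibre genes *Fbln5* (0.57) and *Eln* (0.34) with a more positive one, named after their values were seen.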

How the data were processed

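Single-cell RNA-seq of dissociated, cryopreserved E15.5 mouse gonads was deposited as UMI counts per gene and barcode, 1 matrix per library. The authors aligned reads with Cell Ranger to mm10 and corrected barcode swapping, per the labels and the study's methods, so the deposited counts were not normalized. The cell filter kept more than 2500 and fewer than 9000 genes, under 25% mitochondrial and under 20% *Hbb* UMIs. Doublets were not removed in the main analysis, and removing the 8% of cells with the highest Scrublet scores was an alternative.

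The members and gene lists were chosen with earlier results of these data known. The genes named are the 10 largest rises and falls among called genes at a mean log2 CPM of 4 or more, up to 4 called genes per list by smallest p (the 2 most abundant where none was called) and 8 for the interaction. Some genes that this rule picks are not reported here.

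UMIs were summed per library and compared with edgeR 4.0.16 (quasi-likelihood test, filterByExpr, TMM, Benjamini-Hochberg) in R 4.3.3. Each SE was derived from a gene's F statistic as |log2 fold change|/√F. The p-values of the genotype test rest on the spread between libraries, which edgeR moderates across genes. Those of the interaction rest on the spread of the difference between states within libraries. Both have only 2 libraries per genotype behind them. Cells were read with Python 3.11.15 and scanpy 1.11.5. DESeq2 1.42.0 was an alternative, and steps were tested on simulated data with 200 changed genes. Of changes of 0.75 in log2, the genotype step recovered 89% and the interaction step 6%. At 1.5 they recovered 100% and 86%, and 5.97% and 2.13% of their calls were false. The simulated spread was set below the overall estimate, so these rates need not hold for the data. Intervals of shares cover counting error only.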

Additional observations from a re-analysis of the deposited data

Results flagged for a closer look

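The genotype difference (dKO XY against control XY) in cycling cells differed from that in non-cycling interstitial cells by the test of the interaction for 8 genes named by smallest p (edgeR's quasi-likelihood test, Benjamini-Hochberg adjusted p between 0.00102 and 0.0100). On the log2 scale the difference, cycling minus non-cycling, was 0.58 for *Igfbp3*, 0.59 for *Smim1*, 0.39 for *Ifitm1*, 0.21 for *Rps27*, a ribosomal protein gene, -0.47 for *Mcm3*, -0.49 for *Hells*, -1.42 for RP24-286J21.7 and 3.86 for *Gm5483*. *Smim1*, a small membrane protein known from red cells, was at 37.3, 38.7, 55.5 and 64.1 CPM in cycling and 53.7, 57.9, 57.8 and 62.3 CPM in non-cycling cells, and *Rps27* at 2865, 2347, 2324 and 2352 against 3848, 3187, 2816 and 2807 CPM. RP24-286J21.7 was at 30.6, 14.7, 22.1 and 26.0 CPM in cycling and 3.76, 1.76, 7.84 and 8.03 CPM in non-cycling cells. *Gm5483* was at 2.15, 0.196, 14.4 and 0.237 CPM in cycling and 2.504, 0.340, 1.22 and 0.0992 CPM in non-cycling cells, so that both genotypes had a high and a low library. *Igfbp3* and RP24-286J21.7 were called in 14 of 14 alternatives, *Mcm3*, *Hells*, *Ifitm1* and *Rps27* in 13, *Gm5483* in 10 and *Smim1* in 9. *Mcm3* and *Hells* go with the genes that chose the cells.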

How the results depend on the processing

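The count of 958 genes between genotypes was 1573 with DESeq2, 1631 without a filter on low counts, 600 with a stricter exclusion of other cell types and 479 without cells rich in Sertoli and granulosa markers, a filter chosen after seeing the data, and ranged from 25 to 1294 when 1 library was left out. The replicate block gave 1266 calls, 875 of them among the 958, but the libraries are known to share only a number. The correlation of deviations from the genotype mean was 0.0751 for equal numbers. With 2 libraries per genotype, that for unequal numbers is its negative by construction, so the contrast cannot decide on a pairing. The interaction count of 228 was 144 with DESeq2, 962 without a filter, 146 at under 10% mitochondrial UMIs, 100 with the stricter exclusion and 9 to 386 with 1 library left out. Its split of 111 higher and 117 lower was 70 and 201 with DESeq2 size factors in edgeR and 75 and 260 in cells thinned to 10000 UMIs. The difference in cycling share was 9.19 points in thinned cells and 9.61 to 22.9 with 1 library left out. That in G2M-led share ran from -6.02 to -1.81 with 1 library left out. The log2 fold change of *Nr0b1* turned to -0.053 in thinned cells and to -0.11 without cells rich in Sertoli and granulosa markers. That of *Smim1* turned to -0.18 without the latter and to -0.088 without cells rich in epithelial, germ, endothelial and immune markers. The cause of these changes was not tested. Where an arm was left with 1 library, it was assumed to vary like the other. With 2 libraries per genotype no exact permutation test can give a p under 0.33.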

Other observations

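In the control XX libraries, which entered no comparison, 283 and 516 cells met the same thresholds. *Kctd14* was at 320 and 175 CPM in those cells, *Amhr2* at 58.9 and 33.6, *Col25a1* at 16.4 and 12.9 and *Inhba* at 15.9 and 12.9 CPM. Relative to control XY these lay on the same side as dKO XY. Other genes lay on the opposite side, such as *Nts* at 0 and 0, *Aldh1a1* at 32.8 and 15.6 and *Col1a1* at 1109 and 1314.5 CPM. These cells are given as values only.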
